A study of Mus musculus with 18 samples.

Results

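The genes described here are 10 components of the Wnt pathway: Wnt1, Lgr5, Tnfrsf19, Axin2, Nkd1, Lef1, Wif1, Sfrp2, Dkk3 and Sostdc1. They were chosen with earlier results of these data known, and were matched by their symbol in the platform annotation. All 10 were measured, each by 1 array feature, among 16887 genes in all. RNA from 18 primary mouse mammary tumours was set against whole-mouse RNA on 2-channel arrays, and every value is a log2 ratio of tumour over that common RNA. The groups were Wnt1_iR2 (iR2 below, n = 4), Wnt1_iFGFR2 (iFGFR2, n = 4), Wnt1_iFGFR1 (iFGFR1, n = 4) and Wnt1 (n = 6). The titles of all 18 arrays carry FVB, MMTV and Wnt1, so the Wnt1 label is common to every group, the controls included. The MMTV promoter, of mouse mammary tumour virus, is known to express transgenes such as this ligand in mammary epithelium. The labels do not expand iFGFR1, iFGFR2 or iR2, and they give no age, treatment or time. Nothing in them states that each array is a different animal. The p-values therefore rest on sample-to-sample spread, part or all of which may be technical.

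Wnt proteins are secreted ligands that bind Frizzled receptors with the co-receptors Lrp5 and Lrp6. Binding stops the destruction complex, built on Axin and Apc, from degrading beta-catenin, which then enters the nucleus and acts with Tcf and Lef factors on target genes. Several targets feed back on the pathway as inhibitors, and secreted antagonists such as Wif1 and the Sfrp proteins bind the ligand outside the cell. In the mammary gland the pathway is known for its part in stem and basal cells, and Wnt1 itself was found as a site of viral insertion in mouse mammary tumours.

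The sequences 250 bases upstream of the annotated start are shown for 3 genes that were lower in iFGFR1 than in Wnt1 (Wif1, Sfrp2 and Tnfrsf19) and for Nkd1, which was higher. They are from RefSeq on build GRCm38.p6, where 7 of the 10 genes had an entry, with 11 windows between them. Lgr5, Dkk3 and Sostdc1 had none. Each is written 5' to 3' on the strand of the gene: Wif1 at chr10:121033754-121034003 (plus strand), Sfrp2 at chr3:83766071-83766320 (plus), Tnfrsf19, its second listed start, at chr14:61037988-61038237 (minus), and Nkd1 at chr8:88527383-88527632 (plus). Capitals mark the Tcf and Lef core CTTTG on either strand, extended where it reads CTTTGAT.
Wif1: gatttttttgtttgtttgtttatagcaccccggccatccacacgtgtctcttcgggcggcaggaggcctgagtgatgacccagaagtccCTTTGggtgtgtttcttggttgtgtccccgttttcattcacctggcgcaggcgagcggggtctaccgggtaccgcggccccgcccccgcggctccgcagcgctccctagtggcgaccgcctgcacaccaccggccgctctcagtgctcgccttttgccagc
Sfrp2: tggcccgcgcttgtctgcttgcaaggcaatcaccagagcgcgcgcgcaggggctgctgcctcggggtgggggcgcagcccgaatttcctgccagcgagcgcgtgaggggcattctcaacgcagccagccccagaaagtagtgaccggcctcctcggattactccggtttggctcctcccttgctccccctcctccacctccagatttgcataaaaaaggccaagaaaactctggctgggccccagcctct
Tnfrsf19: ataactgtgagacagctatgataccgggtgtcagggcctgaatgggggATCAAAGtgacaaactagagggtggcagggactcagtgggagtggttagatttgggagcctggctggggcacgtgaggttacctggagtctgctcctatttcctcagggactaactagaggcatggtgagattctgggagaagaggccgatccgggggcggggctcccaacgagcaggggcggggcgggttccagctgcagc
Nkd1: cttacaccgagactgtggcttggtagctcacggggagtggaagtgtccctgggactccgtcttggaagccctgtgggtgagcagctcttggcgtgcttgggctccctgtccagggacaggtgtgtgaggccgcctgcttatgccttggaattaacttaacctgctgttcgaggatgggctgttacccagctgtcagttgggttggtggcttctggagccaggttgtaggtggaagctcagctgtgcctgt
The core CTTTG, read on both strands as CTTTG or CAAAG, was found in 7 of the 11 windows, in Wnt1, Lef1, Tnfrsf19 and Wif1. Of these 7, 4 belong to Lef1, whose first 2 windows overlap and share a core, and the first window of Tnfrsf19, not shown, has none. It was present in 48.6% of all 32851 promoter windows of the same length. In Wif1 it began at position -161 from the start. The longer CTTTGAT, which contains the core, was found in 1 of the 11 windows, that of Tnfrsf19, as ATCAAAG, and in 3.21% of all windows. CTTTGAA and CTTTGTT were in 0 of the 11 and in 4.46% and 5.03% of all windows. A match describes the letters and is not a binding site.

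Of the arrays, Wnt1 replicate 3 stood apart from its group, with a mean correlation of 0.778 with its other arrays over all genes, where the other Wnt1 arrays lay between 0.847 and 0.880. For iFGFR2 replicate 1 it was 0.761, against 0.790 to 0.830 on the other iFGFR2 arrays, a smaller gap, and the iFGFR1 arrays lay between 0.763 and 0.813. The iR2 arrays were the most alike, at 0.945 to 0.956. The mean of 12 measured markers of luminal epithelium was above the common RNA on every array, at 1.04 to 2.50. Not every gene on that list was above it: Foxa1 had means of -0.33 in iR2, -0.37 in iFGFR2, -0.88 in iFGFR1 and -0.05 in Wnt1. Beside this, the mean of 12 fibroblast markers was -2.07 in iR2, -2.33 in iFGFR2, -2.72 in iFGFR1 and -1.54 in Wnt1. Wnt1 replicate 3 had the highest fibroblast, basal and luminal means of its group (-0.77, 0.35 and 2.50). The same array was highest of its group for the endothelial (-0.34), macrophage (0.46), T and NK cell (-0.02), adipocyte (-2.70) and keratinocyte (-2.62) lists. For skeletal muscle (-4.25) it was not. In bulk tumours fewer cells of a type and less RNA per cell cannot be told apart.

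Against Wnt1, iFGFR1 tumours had lower levels of the secreted antagonists Wif1, Sfrp2, Dkk3 and Sostdc1, of the R-spondin receptor Lgr5 and of Tnfrsf19, and a higher level of the feedback inhibitor Nkd1. In limma's test over all genes, adjusted by Benjamini-Hochberg, 6 of the 10 fell and 1 rose at an adjusted p under 0.05, while 7.06% of all genes fell and 8.38% rose (15.4% in either direction). The iFGFR1 and Wnt1 arrays did not overlap for 5 of the 10 on the lower side and 1 on the higher side, against 4.61% and 4.88% of all genes. Their median difference was -1.30, against 0.02 over all genes. In iFGFR2 and in iR2, 0 of the 10 passed against Wnt1, where 3.43% of all genes (1.97% higher, 1.46% lower) and 7.1% (3.91% higher, 3.19% lower) did. At an unadjusted p under 0.05, limma counted 3 in iFGFR2 and 1 in iR2, where 20.9% and 23.4% of all genes lay under it. The 3 comparisons share the 6 Wnt1 arrays. Over the 4 groups, 7 of the 10 differed by limma's F test, against 19.6% of all genes. The 10 were chosen with earlier results of these data known, so their counts here and below describe them and are no independent test.

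**Figure D1:**
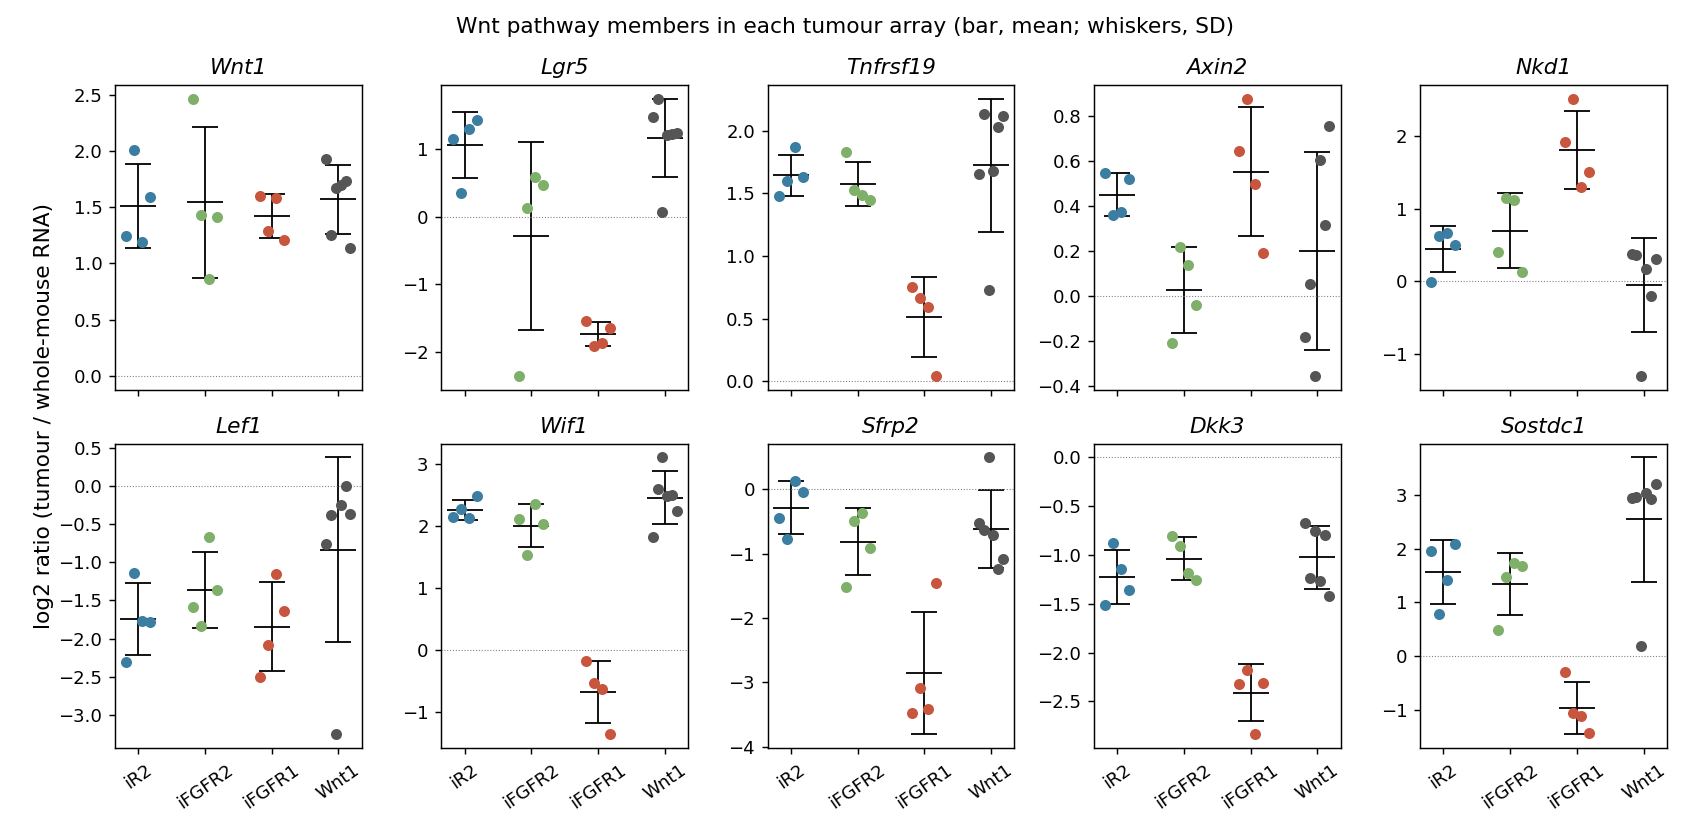
Log2 ratio of tumour over whole-mouse RNA (vertical axis) in each of the 18 arrays for the 10 genes, by group; points are arrays, horizontal bars group means and whiskers SD. In iFGFR1 the Wif1 arrays lie between -1.37 and -0.18, below all Wnt1 arrays, and the Nkd1 arrays between 1.30 and 2.52, above them.

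The ligand came first. Wnt1 (feature 18442) stood at 1.24, 2.01, 1.19 and 1.59 in iR2, at 2.46, 1.43, 0.86 and 1.41 in iFGFR2, and at 1.60, 1.29, 1.58 and 1.21 in iFGFR1. In the Wnt1 group the lowest, median and highest were 1.13, 1.68 and 1.93. The 4 ranges overlapped, and every array was above the common RNA. The differences from Wnt1 were -0.06, -0.03 and -0.15 in iR2, iFGFR2 and iFGFR1 (SE 0.25 each), with 95% intervals from -0.68 to 0.50 over the 3, and none passed (lowest limma adjusted p = 0.739). The sources used here do not place this feature relative to a transgene, so it does not check the labels.

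Among the receptors, Lgr5 (feature 3284) binds R-spondins, which strengthen Wnt signalling, and marks stem cells in several epithelia. It stood at 1.16, 0.35, 1.30 and 1.44 in iR2, at -2.35, 0.14, 0.59 and 0.48 in iFGFR2, and at -1.54, -1.91, -1.87 and -1.64 in iFGFR1. In Wnt1 the lowest, median and highest were 0.07, 1.23 and 1.75. All 4 iFGFR1 arrays lay below every Wnt1 array, and iFGFR2 replicate 1 lay below all of iFGFR1 as well. Lgr5 fell by 2.90 in iFGFR1 (SE 0.43, 7.48-fold, adjusted p = 0.000215) and was 2.80 higher in iR2 than in iFGFR1 (SE 0.47, adjusted p = 0.000928). The order of group means was iR2 and Wnt1, which differed by -0.10 (SE 0.43), then iFGFR2, then iFGFR1. Neighbours in that order did not differ past the threshold: iR2 was 1.35 above iFGFR2 (adjusted p = 0.164), and iFGFR2 was 1.45 above iFGFR1 (adjusted p = 0.122). iFGFR2 differed from Wnt1 by -1.45 (adjusted p = 0.0638). Without iFGFR2 replicate 1, iFGFR2 was 2.14 above iFGFR1 (adjusted p = 0.00115). In that fit iFGFR2 differed from Wnt1 by -0.76 (adjusted p = 0.214), and iR2 was 0.66 above iFGFR2 (adjusted p = 0.322). Without Wnt1 replicate 3, iFGFR2 differed from Wnt1 by -1.67 (adjusted p = 0.0214).

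Tnfrsf19 (feature 14973), a receptor of the tumour necrosis factor family and a known Wnt target, stood at 1.48, 1.60, 1.87 and 1.63 in iR2, at 1.83, 1.53, 1.49 and 1.45 in iFGFR2 and at 0.75, 0.66, 0.60 and 0.04 in iFGFR1. Wnt1 arrays had a lowest, median and highest value of 0.73, 1.85 and 2.13. Of the iFGFR1 arrays, 3 lay below every Wnt1 array, and all 4 lay below every iR2 and iFGFR2 array. It fell by 1.21 in iFGFR1 against Wnt1 (SE 0.24, 2.32-fold, limma adjusted p = 0.00199). It was 1.06 higher in iFGFR2 than in iFGFR1 (SE 0.26, adjusted p = 0.0349) and 1.13 higher in iR2 than in iFGFR1 (adjusted p = 0.00732). Wnt1, iR2 and iFGFR2 did not differ from each other past the threshold (-0.08, -0.15 and 0.07).

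Of the intracellular feedback genes, Nkd1 (feature 6563), which binds Dishevelled and restrains the pathway, was the member that rose in iFGFR1. It stood at -0.02, 0.62, 0.67 and 0.50 in iR2, at 0.40, 1.15, 1.12 and 0.13 in iFGFR2 and at 1.92, 2.52, 1.30 and 1.50 in iFGFR1. Lowest, median and highest in Wnt1 were -1.31, 0.24 and 0.37. All 4 iFGFR1 arrays lay above every array of the other groups. Nkd1 rose by 1.86 in iFGFR1 against Wnt1 (SE 0.32, 3.64-fold, limma adjusted p = 0.000694) and was 1.37 lower in iR2 than in iFGFR1 (difference -1.37, adjusted p = 0.0142). The order was iFGFR1, iFGFR2, iR2 and Wnt1. iFGFR2 and iFGFR1 differed by -1.11 (adjusted p = 0.104), and iR2 and iFGFR2 by -0.26 (adjusted p = 0.791). Without Wnt1 replicate 3 the first of these passed, at the same size and with a smaller SE of 0.28 (adjusted p = 0.0353).

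Axin2 (feature 16073), the scaffold gene that most tissues switch on in response to Wnt, did not pass in any comparison. Its means were 0.45 ± 0.10 in iR2, 0.03 ± 0.19 in iFGFR2, 0.55 ± 0.29 in iFGFR1 and 0.20 ± 0.44 in Wnt1 (SD, n = 4, 4, 4 and 6). The difference of iFGFR1 from Wnt1 was 0.35 (95% interval -0.08 to 0.79, adjusted p = 0.272). The largest was between iFGFR2 and iFGFR1, at -0.53 (95% interval -1.01 to -0.05, adjusted p = 0.259). Lef1 (feature 16751), a nuclear partner of beta-catenin, stood at -2.30, -1.15, -1.77 and -1.78 in iR2, at -1.59, -1.83, -0.67 and -1.37 in iFGFR2 and at -2.50, -2.09, -1.15 and -1.64 in iFGFR1. In Wnt1 the lowest, median and highest were -3.25, -0.38 and -0.01. One Wnt1 array, replicate 3, was below all 17 others. The differences from Wnt1 were -0.91, -0.53 and -1.01 in iR2, iFGFR2 and iFGFR1 (limma adjusted p = 0.250, 0.560 and 0.154). Without that array they were -1.39, -1.01 and -1.49, and all 3 passed (adjusted p = 0.00448, 0.0345 and 0.00133).

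The 4 secreted antagonists described here fell in iFGFR1 against Wnt1. Of 12 other secreted antagonists measured, 1 fell, 0 rose and 11 did not pass in that comparison. The share that passed was 8.33%, against 15.4% of all genes. Wif1 (feature 6577), which binds Wnt proteins directly, stood at 2.15, 2.28, 2.13 and 2.49 in iR2, at 2.12, 1.54, 2.35 and 2.03 in iFGFR2 and at -0.18, -0.54, -0.64 and -1.37 in iFGFR1. Wnt1 arrays had a lowest, median and highest value of 1.83, 2.49 and 3.11. All iFGFR1 arrays lay below all others, and Wnt1 replicate 3 was the highest array of all. Wif1 fell by 3.14 in iFGFR1 against Wnt1 (SE 0.24, 8.83-fold, adjusted p = 2.07e-07) and was higher by 2.69 in iFGFR2 and by 2.94 in iR2 than in iFGFR1 (adjusted p = 2.27e-05 and 3.70e-06). The iR2, iFGFR2 and Wnt1 groups differed by -0.45 to 0.25, none past the threshold.

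Sfrp2 (feature 8731), a secreted Frizzled-related protein that is also a fibroblast product, stood at -0.45, -0.78, 0.13 and -0.04 in iR2, at -1.51, -0.49, -0.36 and -0.91 in iFGFR2 and at -3.48, -3.09, -3.41 and -1.45 in iFGFR1. Lowest, median and highest in Wnt1 were -1.24, -0.67 and 0.50. The highest iFGFR1 array overlapped iFGFR2 and none of the other groups. It fell by 2.24 in iFGFR1 against Wnt1 (SE 0.37, 4.73-fold, limma adjusted p = 0.000543) and was 2.04 higher in iFGFR2 and 2.57 higher in iR2 than in iFGFR1 (adjusted p = 0.0102 and 0.000529). The other 3 groups did not differ past the threshold.

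Dkk3 (feature 15252), a divergent member of the Dickkopf family, stood at -1.51, -0.87, -1.15 and -1.36 in iR2, at -0.81, -0.90, -1.18 and -1.26 in iFGFR2 and at -2.32, -2.18, -2.84 and -2.31 in iFGFR1. In Wnt1 the lowest, median and highest were -1.42, -1.02 and -0.67. All iFGFR1 arrays lay below all others. It fell by 1.39 against Wnt1 (SE 0.20, 2.62-fold, limma adjusted p = 0.00014) and was 1.37 higher in iFGFR2 and 1.19 higher in iR2 (adjusted p = 0.00205 and 0.00173). The other 3 groups differed by at most 0.20 in size, and none of these passed.

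Sostdc1 (feature 17002), which binds the Lrp co-receptors and bone morphogenetic proteins, stood at 1.96, 0.78, 1.42 and 2.09 in iR2, at 0.49, 1.48, 1.72 and 1.67 in iFGFR2 and at -0.29, -1.06, -1.10 and -1.43 in iFGFR1. Wnt1 arrays had a lowest, median and highest value of 0.20, 2.94 and 3.20. All iFGFR1 arrays lay below all others, and Wnt1 replicate 3 was the lowest Wnt1 array by a wide margin. Sostdc1 fell by 3.51 in iFGFR1 against Wnt1 (SE 0.46, 11.4-fold, limma adjusted p = 6.17e-05). It was 2.31 higher in iFGFR2 and 2.53 higher in iR2 than in iFGFR1 (adjusted p = 0.0191 and 0.003). The differences of iR2 and iFGFR2 from Wnt1 were -0.98 and -1.20 (adjusted p = 0.206 and 0.138). Without Wnt1 replicate 3 they were -1.45 and -1.67 and passed (adjusted p = 0.00394 and 0.00317).

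**Figure D2:**
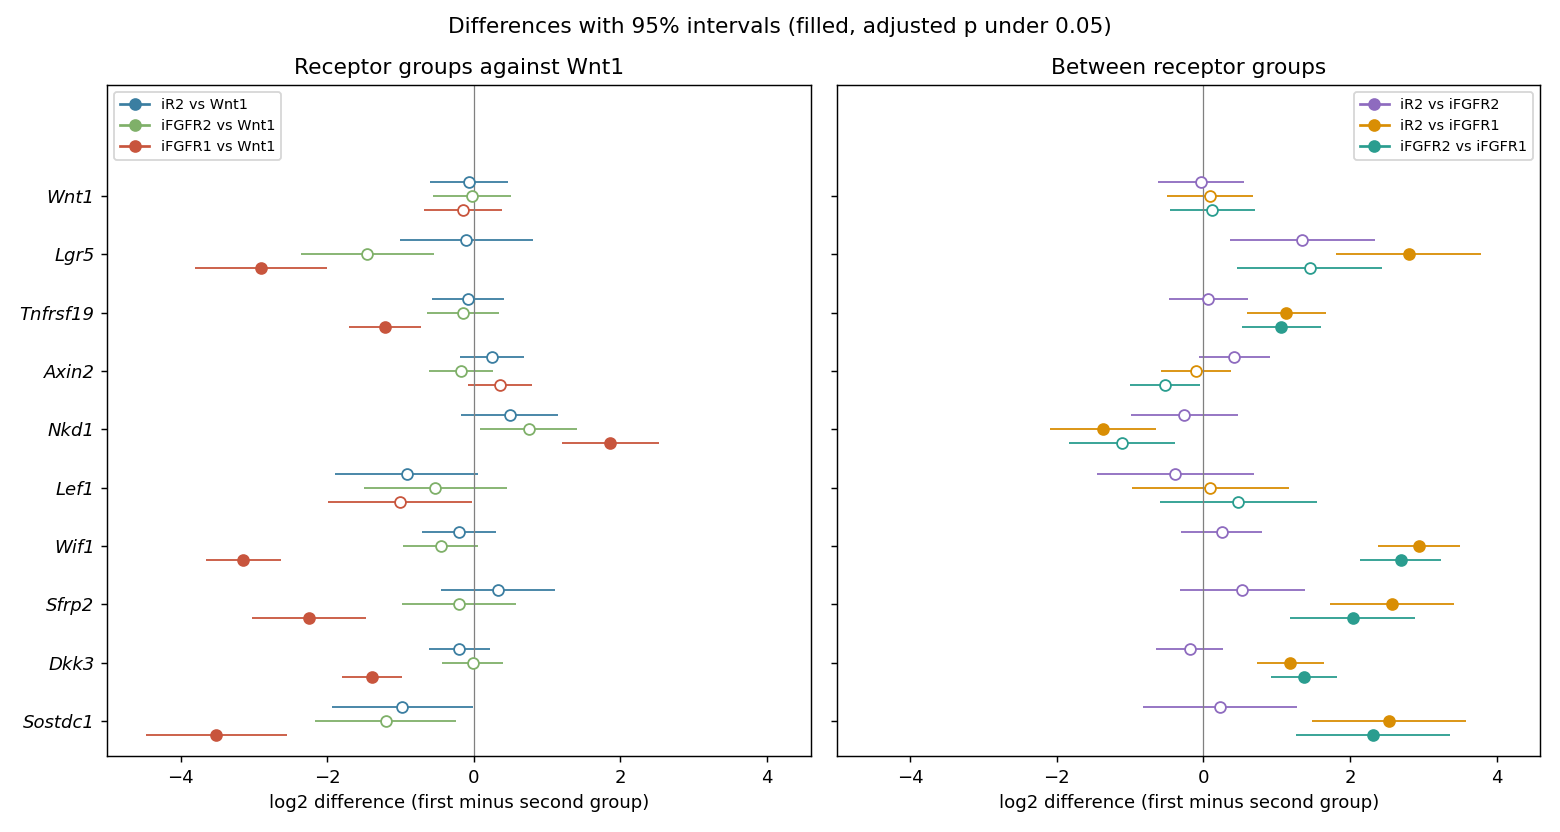
Differences of mean log2 ratio, first minus second group (horizontal axis), for the 10 genes in 6 comparisons, with 95% intervals; filled points have a limma adjusted p under 0.05. All 7 filled points against Wnt1 are in iFGFR1, and 12 lie between receptor groups.

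Between the receptor groups, the 4 antagonists and Tnfrsf19 were lower in iFGFR1 than in the other 2, and Lgr5 passed only against iR2. In iFGFR2 against iFGFR1, 5 of the 10 rose and 0 fell (1.21% and 0.924% of all genes, 2.13% in all), and Tnfrsf19, Wif1, Dkk3 and Sostdc1 did not overlap, where 3.36% of all genes were higher without overlap. Nkd1 was lower without overlap, as were 2.81% of all genes. In iR2 against iFGFR1, 6 rose and 1 fell (4.81% and 6.84% of all genes, 11.7% in all), and these 7 did not overlap, against 9.21% of all genes on the higher side and 13% on the lower side. In iR2 against iFGFR2, 0 of the 10 passed, against 1.34% of all genes (0.272% higher, 1.07% lower), and limma counted 1 at an unadjusted p under 0.05, against 15.4% of all genes. Of the calls in iFGFR2 against iFGFR1, Tnfrsf19 was lost under 10 of 31 settings, Sostdc1 under 7 and Sfrp2 under 2, of which 1 each was the stricter threshold of 0.01. The differences under those settings were 0.91 to 1.10 for Tnfrsf19, 2.16 to 2.31 for Sostdc1 and 2.04 for Sfrp2. These comparisons test the difference between the groups' effects, since the Wnt1 arrays cancel. When the fit included the title number, 265 of all genes passed in iR2 against iFGFR1, where 1968 did without it. In that fit 5 of the 7 member calls ended (Lgr5, Tnfrsf19, Nkd1, Sfrp2 and Sostdc1, limma adjusted p = 0.0570 to 0.208). Their differences in that fit were 2.22 (SE 0.71), 1.09 (SE 0.40), -1.35 (SE 0.54), 2.41 (SE 0.63) and 2.24 (SE 0.77), each with a larger SE than without the number (0.47, 0.26, 0.35, 0.41 and 0.50). Each sample title carries a number that no label explains, and those of the 4 iR2 arrays lie above those of all other arrays.

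**Figure D3:**
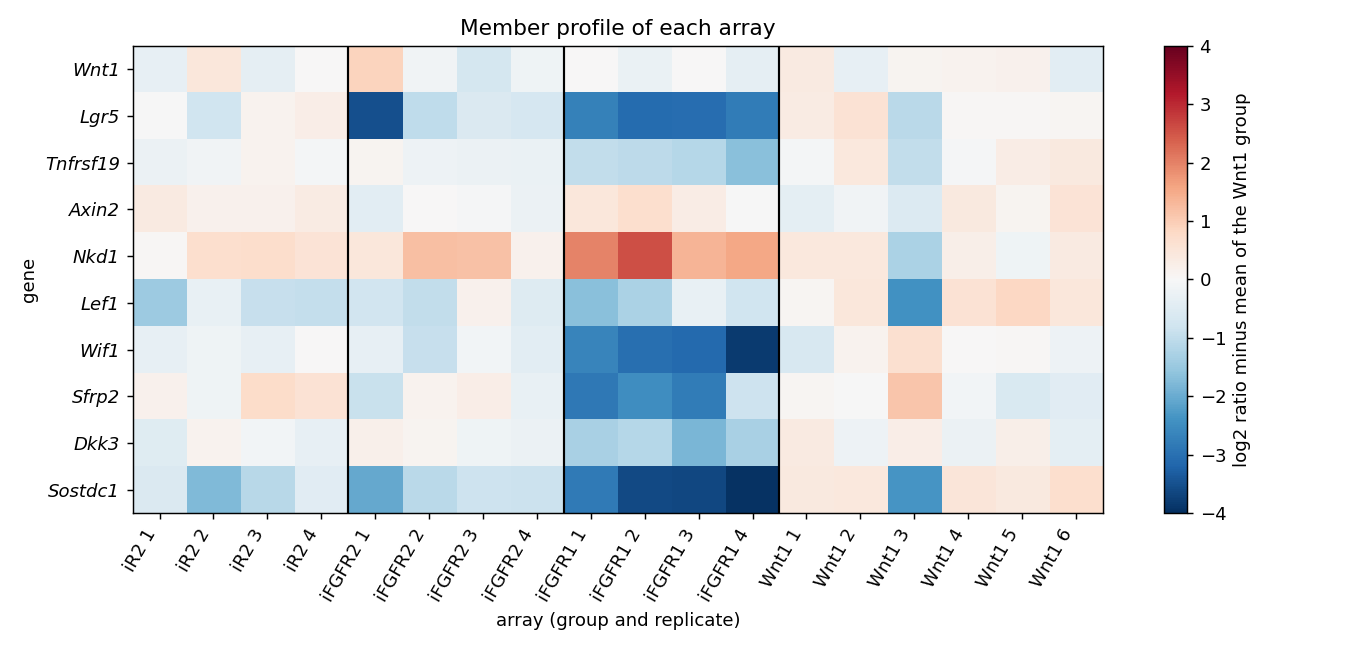
Log2 ratio of each of the 10 genes minus its mean in the Wnt1 group (colour), in each array (columns, by group and replicate). The 4 iFGFR1 columns are blue for Lgr5, Wif1, Sostdc1, Dkk3, Tnfrsf19 and Sfrp2, and Wnt1 replicate 3 is blue for Lef1, Sostdc1, Nkd1, Lgr5 and Tnfrsf19.

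Some fibroblast and basal markers also differed between iFGFR1 and Wnt1. Of 12 fibroblast markers, 9 fell and 1 rose in iFGFR1 against Wnt1 (median -1.32, against 0.02 over all genes). Of 12 basal and myoepithelial markers, 5 fell and 1 rose, with list means of -0.65 ± 0.10 in iFGFR1 and -0.07 ± 0.24 in Wnt1. Of 8 keratinocyte markers, 3 rose (list means -1.99 ± 0.40 in iFGFR1 and -3.38 ± 0.38 in Wnt1), and of 12 luminal markers 3 rose. Of 8 endothelial markers 0 changed. The fibroblast list also held 2 changed genes in iFGFR2 and 2 in iR2, all lower than in Wnt1 (list medians -0.76 and -0.36). Of the basal markers, 0 changed in iFGFR2 against Wnt1, and 1 rose and 0 fell in iR2. Against iFGFR1, 3 fibroblast markers rose in iFGFR2, and 3 rose and 1 fell in iR2. Of the basal markers, 1 rose and 1 fell in iFGFR2 against iFGFR1, and 4 rose and 1 fell in iR2 against iFGFR1. Of the keratinocyte markers, 2 fell in iFGFR2 and 4 fell in iR2, both against iFGFR1, and 0 rose. Of all genes, 15.4% passed in iFGFR1, 3.43% in iFGFR2 and 7.1% in iR2, each against Wnt1. Against iFGFR1, 2.13% of all genes passed in iFGFR2 and 11.7% in iR2. The part of these marker differences in the changes above was not tested.

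**Figure D4:**
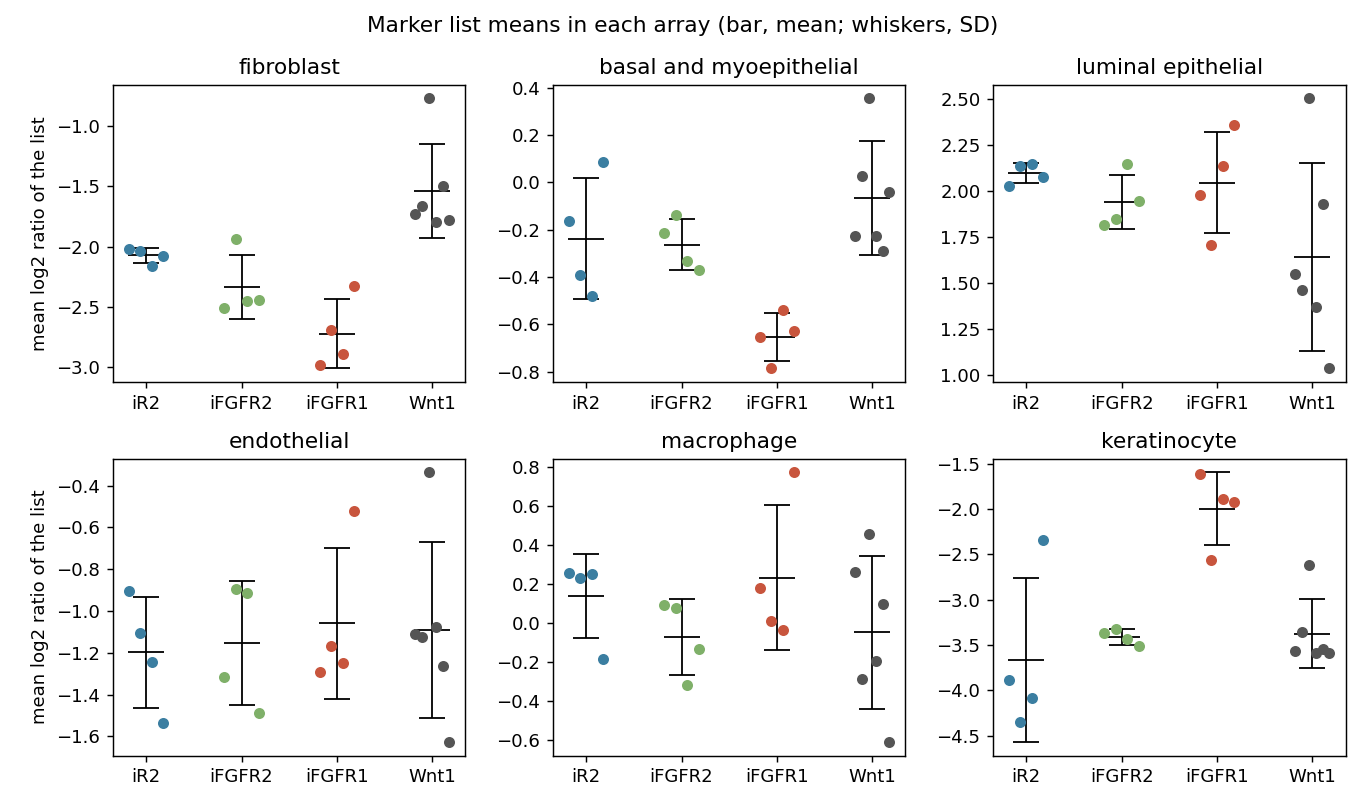
Mean log2 ratio of 6 marker lists (vertical axis) in each array, by group; points are arrays, bars group means and whiskers SD. The fibroblast mean was -2.72 in iFGFR1 and -1.54 in Wnt1, and the keratinocyte mean was -1.99 in iFGFR1 and -3.38 in Wnt1.

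The genes most like each changed member, by mean absolute difference of the 18 values taken relative to the Wnt1 group mean, were Slc14a1 (0.37) and Col9a3 (0.41) for Lgr5, Frmd4b (0.19) and Sel1l3 (0.20) for Tnfrsf19, and Fbxo21 (0.39) and Chmp4b (0.40) for Nkd1. For the antagonists they were Itprid1 (0.37) and Sobp (0.43) for Wif1, Rnase4 (0.49) and Pdgfra (0.50) for Sfrp2, Fbln2 (0.25) and Rgs10 (0.25) for Dkk3, and Mgp (0.46) and Hopx (0.46) for Sostdc1. The members' own mean absolute deviations from the Wnt1 mean were larger, from 0.47 for Tnfrsf19 to 1.52 for Sostdc1. They were 0.81 for Sfrp2 and 0.50 for Dkk3. Pdgfra and Fbln2 are on the fibroblast list.

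Of 111 other measured pathway genes, 5 rose and 4 fell in iR2 against Wnt1 (8.11%, against 7.1% of all genes), 1 rose and 0 fell in iFGFR2 (0.901%, against 3.43%), and 4 rose and 12 fell in iFGFR1 (14.4%, against 15.4%). Taken over both directions, the iR2 and iFGFR1 shares were near those of all genes, and the iFGFR2 share was below. In iFGFR1 more of the 111 fell than rose, where 7.06% of all genes fell and 8.38% rose. The medians were -0.14 in iR2, -0.04 in iFGFR2 and -0.08 in iFGFR1, against -0.05, 0.01 and 0.02 over all genes. Prom1, which encodes the surface glycoprotein CD133, rose in all 3 receptor groups, by 1.74 in iR2, 1.88 in iFGFR2 and 2.85 in iFGFR1 (SE 0.25 each, limma adjusted p = 0.000994, 0.00104 and 7.91e-07). Its means were 2.43 ± 0.30, 2.56 ± 0.60 and 3.54 ± 0.27 in these groups, and 0.69 ± 0.36 in Wnt1, with no overlap. When the fit included the title number, the iR2 call ended (1.42, SE 0.54, adjusted p = 0.234) and the other 2 held.

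In iFGFR1 the ligand Wnt5b fell by 1.59 (SE 0.24, adjusted p = 0.000221). The membrane inhibitor Apcdd1 fell by 1.67 (SE 0.35), Tmem64 fell by 1.19 (SE 0.23), the nuclear co-activator Pygo2 fell by 1.02 (SE 0.20) and Ccn5 fell by 1.95 (SE 0.40). The R-spondin Rspo1 fell by 2.21 (SE 0.59, adjusted p = 0.015), named here after its value was seen. Its Wnt1 arrays ran from -3.43 to 0.83 and overlapped those of iFGFR1 (-4.53 to -2.75). Dusp4, a phosphatase that acts on MAP kinases, rose by 0.92 in iFGFR1 (SE 0.21), Plaur by 0.96 (SE 0.23) and the co-repressor Tle4 by 0.65 (SE 0.21). With the title number in the fit, the iFGFR1 calls of Rspo1 (-1.50, SE 0.66, limma adjusted p = 0.143) and Plaur (0.73, SE 0.27, adjusted p = 0.0835) ended. Those of the other genes named so far in this paragraph held. In iR2 Dusp4 rose by 0.77 (SE 0.21). Its 2 features gave 0.98 and 0.87 in iFGFR1, and 0.42 and 1.11 in iR2. Tle4, Nrcam and Enc1 also have 2 features each, which had the same sign wherever a change without the title number is given here.

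The gene of beta-catenin, Ctnnb1, went in opposite directions. It stood at 0.83 ± 0.29 in iR2, 0.10 ± 0.23 in iFGFR2, -0.68 ± 0.27 in iFGFR1 and 0.16 ± 0.29 in Wnt1. It rose by 0.67 in iR2 (SE 0.19, limma adjusted p = 0.0406) and fell by 0.84 in iFGFR1 (adjusted p = 0.00656, named after its value was seen), and it was 1.51 higher in iR2 than in iFGFR1 (SE 0.21, adjusted p = 0.000217). In iR2 the ubiquitin ligase gene Rnf43 rose by 0.68 (SE 0.19) and Myc by 0.63 (SE 0.18). Nrcam fell by 1.07 (SE 0.19), Ctnnbip1, an inhibitor of beta-catenin, fell by 0.68, Wnt9a fell by 0.93 and Twist1 fell by 0.98. The adjusted p of these lay between 0.00389 and 0.0486. When the fit included the title number, 0 of these pathway genes passed in iR2 against Wnt1, where 52 of all 16887 genes did. In that fit Ctnnb1 differed by 1.31, Rnf43 by 0.59 and Myc by 0.93. Nrcam differed by -1.48, Ctnnbip1 by -1.23, Wnt9a by -0.46 and Twist1 by -0.79. The SE of these ran from 0.39 to 0.65, against 0.18 to 0.30 without the number. The Ctnnb1 call in iFGFR1 against Wnt1 also ended (-0.61, SE 0.22, limma adjusted p = 0.0714). Its difference of iR2 from iFGFR1 held in that fit (1.93, SE 0.30, adjusted p = 0.00486).

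Between receptor groups, Apc2 was 0.71 higher in iFGFR2 than in iFGFR1 (SE 0.17, limma adjusted p = 0.0314), the 1 call of 111 (0.901%, against 2.13% of all genes). In iR2 against iFGFR1, 8 rose and 6 fell (12.6%, against 11.7% of all genes). With the title number in the fit 2 of the 111 passed there, where 265 of all 16887 genes did. With scaling to a common median absolute deviation 32 passed, where 3645 of all genes did. In the fit without either, Wnt5a was higher by 0.99, Enc1 by 1.38, Edn1 by 1.48 and Ccn5 by 1.50. Nrcam fell by 1.48, Prom1 fell by 1.11 and the co-receptor gene Lrp5 fell by 1.16. Dvl3 fell by 0.58 and the secreted antagonist Dkk1 fell by 1.64. Of these genes, Nrcam alone passed with the title number (-1.75, SE 0.31, limma adjusted p = 0.0108). With that number Enc1 was higher by 0.39 (SE 0.52) and Edn1 by 0.34 (SE 0.56). Wnt5a was higher by 1.06 (SE 0.35) and Ccn5 by 1.19 (SE 0.67). In iR2 against iFGFR2, Nrcam fell by 1.52 and Dkk1 fell by 1.59 (adjusted p = 0.00189 and 0.0468), and none rose (1.8%, against 1.34% of all genes). With the title number 0 passed, where 2 of all genes did, and with that scaling 18, where 2051 did.

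**Figure D5:**
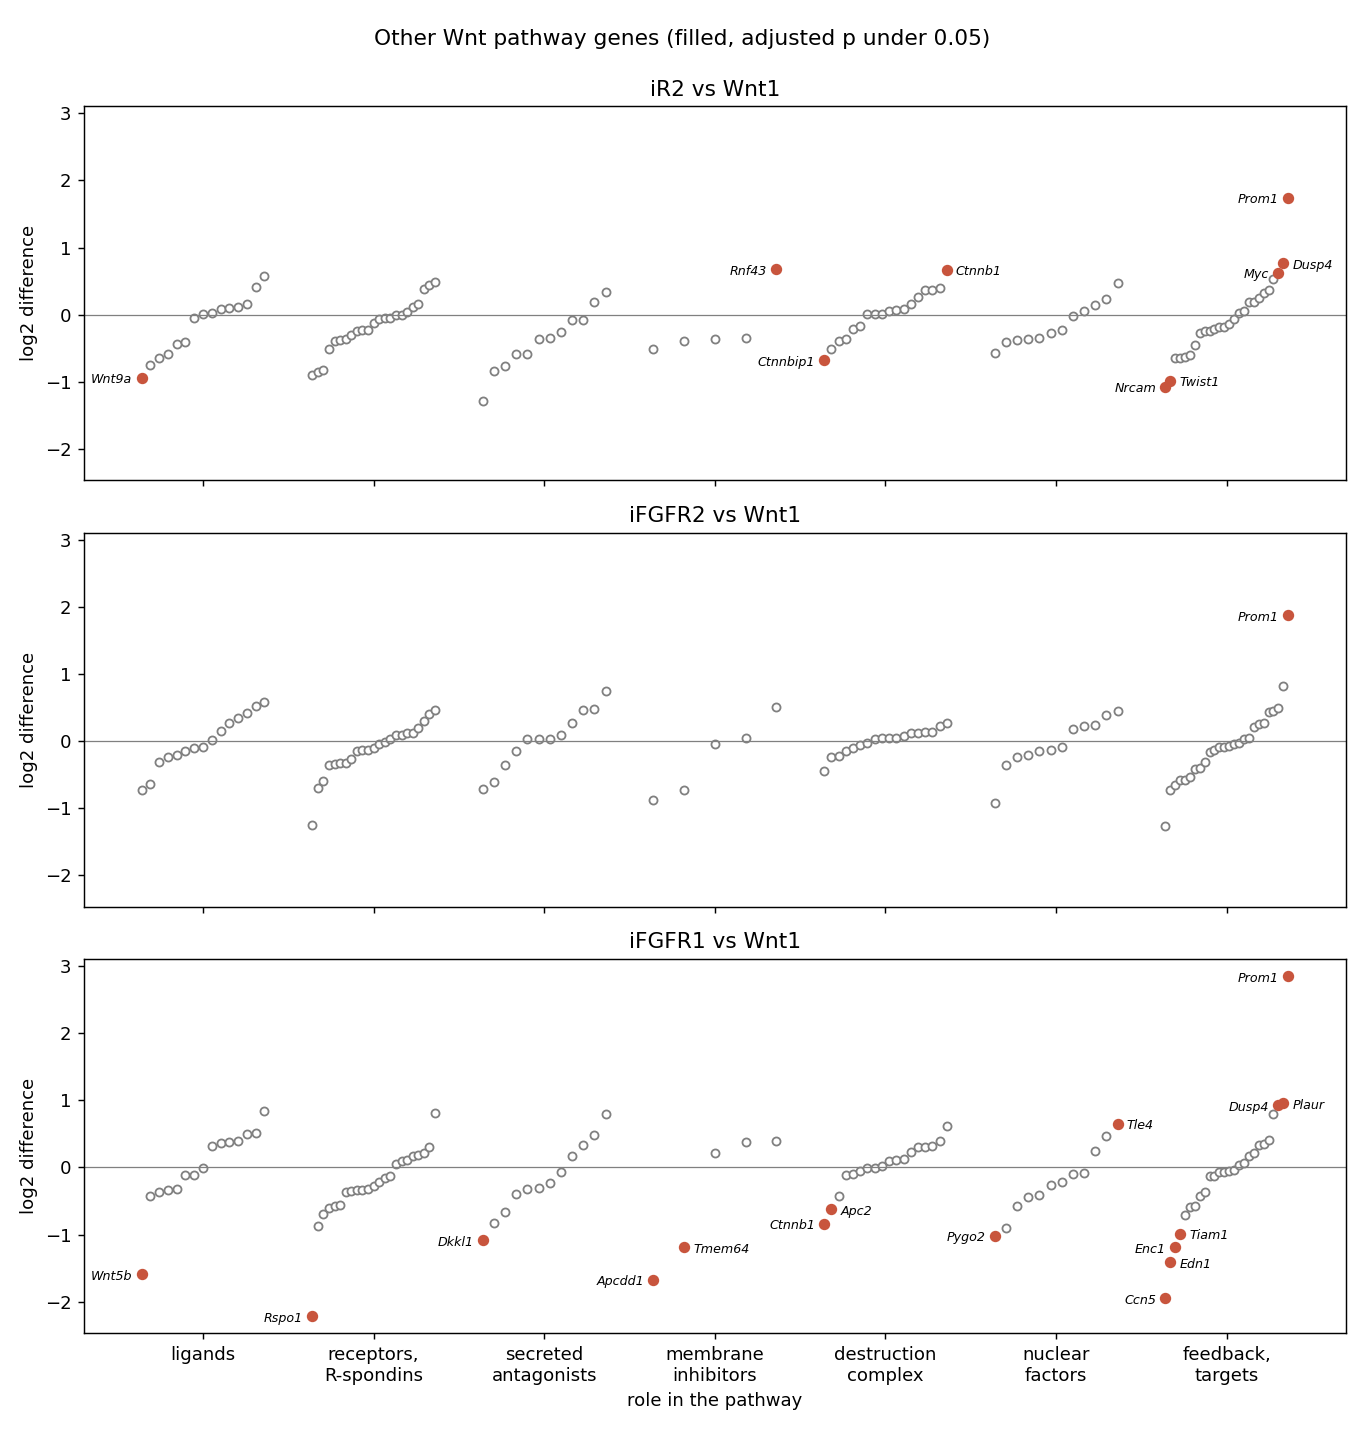
Differences of mean log2 ratio from Wnt1 (vertical axis) for 111 other pathway genes by role, in iR2, iFGFR2 and iFGFR1 from the top; filled, named points have a limma adjusted p under 0.05. Prom1 is filled in all 3 panels, at 1.74, 1.88 and 2.85.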

How the data were processed

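The values deposited by the authors are log ratios for 22575 features of 18 arrays, taken to be log2. The sources used here state neither the log base nor the background correction and normalization. Per the labels, tumour RNA (column kit) was in Cy5 and whole-mouse RNA (TRIZOL) in Cy3, which sets the direction, tumour over reference. The mean ratio was 3.51 for the mammary gene Elf5 and -6.20 for the intestinal gene Fabp2. The values ran from -9.03 to 7.57, with array medians from -0.02 to 0.01 and 0 empty cells, and 0 pairs of arrays were identical.

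Symbols came from the platform annotation: 18658 features had 1 symbol, 30 several and 3887 none (17.2%). Features of a gene were averaged into 16887 genes, with no filter. The tests used limma 3.58.1 (R 4.3.3; lmFit, then eBayes) with all arrays in 1 fit and no covariate, with Benjamini-Hochberg adjustment over all genes within each comparison and a threshold of 0.05. Intervals are 95%, and the number of arrays limits the precision. The code was tested on simulated data. Scanner signals were not used here.

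The 10 genes and the pathway and marker lists (fibroblast, basal, luminal, endothelial, macrophage, T and NK cell, adipocyte, skeletal muscle and keratinocyte) were chosen with earlier results of these data known. Other pathway genes were named by rule: the 5 with the smallest p past the threshold per comparison and direction, and 2 genes most like each member past the F test. Alternatives covered normalization, weights, priors, feature choice, filters, the threshold, fits on the compared arrays, adjustment for the title number, and leaving out single arrays.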

Additional observations from a re-analysis of the deposited data

Results flagged for a closer look

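Of 40 pairs of gene and group, 6 held an array far from the others, and chance alone, at the 95% critical value used, flags about 1 in 20 groups. Over all genes 6.66% of such pairs were flagged, and 9.10% in the Wnt1 group. Wnt1 replicate 3 was the lowest of its group for Lgr5 (0.069, others from 1.21 to 1.75), Tnfrsf19 (0.728, others from 1.66 to 2.13), Nkd1 (-1.31, others from -0.21 to 0.37), Lef1 (-3.25, others from -0.76 to -0.01) and Sostdc1 (0.196, others from 2.93 to 3.20). This array was far from its group in 4.48% of all genes. iFGFR2 replicate 1 was the lowest of its group for Lgr5 (-2.35, others from 0.14 to 0.59) and was far from its group in 3.29% of all genes.

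Effects against Wnt1 differed between receptor groups for 7 genes by limma's test of the difference. In iR2 against iFGFR1 the difference was 2.80 for Lgr5, 1.13 for Tnfrsf19, -1.37 for Nkd1, 2.94 for Wif1, 2.57 for Sfrp2, 1.19 for Dkk3 and 2.53 for Sostdc1. In iFGFR2 against iFGFR1 it was 1.06 for Tnfrsf19, 2.69 for Wif1, 2.04 for Sfrp2, 1.37 for Dkk3 and 2.31 for Sostdc1.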

How the results depend on the processing

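Each result was recomputed under 13 settings and with each of 18 arrays left out. Of 19 member differences past the threshold, 0 changed sign and 8 lost the threshold under some setting; of 41 others, 9 passed under some setting and 19 changed sign, each 0.25 or less in size. All 7 calls of iFGFR1 against Wnt1 held under every setting run. No paired analysis was possible because the labels give the groups no shared replicate numbers. The causes of the changes below were not tested.

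Genes called over the whole table, with arrays left out and then over the other settings, were 303 (without iR2 replicate 3) to 1883 (without Wnt1 replicate 3) and 52 (title number) to 5207 (weights) in iR2 against Wnt1 (1199), 99 (without iFGFR2 replicate 1) to 1470 (without iFGFR2 replicate 2) and 82 (at 0.01) to 790 (weights) in iFGFR2 against Wnt1 (579), and 1750 to 3084 and 1023 (at 0.01) to 2689 in iFGFR1 against Wnt1 (2608). They were 1172 (without iR2 replicate 2) to 2338 in iR2 against iFGFR1 (1968), and with other settings 265 (title number) to 3645 (scaling), in iFGFR2 against iFGFR1 (360) 183 (without iFGFR1 replicate 3) to 530 and 71 (only the compared arrays) to 383, and in iR2 against iFGFR2 (227) 19 (without iR2 replicate 2) to 326 and 2 (title number) to 2051 (scaling). The share of all genes set beside a member count therefore depends on these choices.

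Members called in iFGFR2 against iFGFR1 (5) were 3 with scaling to a common median absolute deviation, 3 with only the compared arrays, 3 without moderation and 2 at an adjusted p under 0.01. In iR2 against iFGFR1 (7) they were 2 with the title number as a covariate. In iR2 against Wnt1 (0) they were 2 with array weights, where 5207 of all 16887 genes passed. In iFGFR2 against Wnt1 (0) they were 1 with the more variable genes alone. In iR2 against iFGFR2 (0) they were 1 with scaling, where 2051 of all genes passed. Leaving out arrays gave 7 to 8 in iFGFR1 against Wnt1, 0 to 3 in iFGFR2 and 0 to 2 in iR2 (the highest without Wnt1 replicate 3 each time), 3 to 6 in iFGFR2 against iFGFR1 (lowest without iFGFR1 replicate 3), 6 to 7 in iR2 against iFGFR1, 0 in iR2 against iFGFR2 and 7 to 8 by the F test.

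Other pathway genes called in iR2 against Wnt1 (9) were 22 with scaling and 33 with array weights, under which 5207 of all genes passed. They were 5 with a trended prior, 5 with each feature on its own and 4 with the more variable genes alone. With only the compared arrays they were 14, with the title number 0 and at 0.01 they were 2. In iFGFR1 against Wnt1 (16) they were 10 at 0.01, and in iFGFR2 against Wnt1 (1) 3 with weights. In iFGFR2 against iFGFR1 (1) they were 0 with scaling, weights, the more variable genes alone, only the compared arrays and at 0.01. In iR2 against iFGFR1 (14) they were 32 with scaling, 22 with weights, 2 with the title number, 4 at 0.01 and 8 without moderation. In iR2 against iFGFR2 (2) they were 18 with scaling, 6 with weights, 1 with quantile normalization, a trended prior, at 0.01 and without moderation, and 0 with each feature on its own and with the title number. Leaving out arrays gave 13 to 21, 1 to 7 and 2 to 12 in iFGFR1, iFGFR2 and iR2 against Wnt1, 0 to 2 in iFGFR2 against iFGFR1, 6 to 20 in iR2 against iFGFR1 and 1 to 2 in iR2 against iFGFR2.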

Other observations

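Of the other marker lists, 1 of 6 macrophage genes and 1 of 7 skeletal muscle genes rose in iFGFR1 against Wnt1, and 0 of 7 T and NK cell genes and 0 of 6 adipocyte genes passed there in limma's test. In iR2 against Wnt1, 2 of the 7 T and NK cell genes fell. In iR2 against iFGFR1, 4 of 8 keratinocyte genes and 2 of 6 adipocyte genes fell. Of all genes, 15.4%, 7.1% and 11.7% passed in these comparisons, in the order given.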
